A study of Homo sapiens with 56 samples.

Results

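The 10 glycolytic enzymes examined were HK2, GPI, PFKP, ALDOA, TPI1, GAPDH, PGK1, PGAM1, ENO1 and PKM. They were chosen by name as 1 enzyme for each step from glucose to pyruvate. All 10 had a row in both deposited tables, out of 16485 genes in the first and 16454 in the other, and all 10 passed the filter on low counts in every line. The values are RNA levels, from sequencing of 7 established human colorectal cancer lines given 10 mM 2-methylisocitrate (2-MiCit, a metabolite of the bacterial methylcitrate cycle) or water as vehicle. Each of the 14 groups had 4 libraries, 56 in all. HCT116, DLD1, LoVo and SW948 stand in the first table, and HT29, SKCO1 and SW1417 in the other. No test compares lines across the tables. The labels call every line epithelial and wild-type and number the libraries. Nothing says that the 4 libraries of a group are separate cultures, and the spread behind each p-value is only that between libraries, which may be technical. How long the cells were treated was not stated in the sources used here.

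Glycolysis splits glucose into a pair of pyruvate molecules in the cytosol. HK2 adds a phosphate to glucose, GPI turns the product into fructose phosphate, and PFKP, a phosphofructokinase, adds the phosphate that commits the sugar to the pathway. ALDOA cleaves the sugar, TPI1 interconverts the resulting trioses, and GAPDH, PGK1, PGAM1, ENO1 and PKM carry them on to pyruvate with a gain of ATP. Colorectal cancer cells are known for rapid glycolysis, and most of these genes are known targets of hypoxia-inducible factor (HIF) and of MYC.

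The libraries of the first table held between 13.8 and 19.4 M counts and those of the other between 29.1 and 45.4 M, and an enzyme had between 838 and 157749 counts in a library. EPCAM, KRT8, KRT18 and KRT19 were expressed in all 7 lines, while the intestinal markers KRT20 and CDX1 had no count in HCT116 and CDX1 had none in DLD1. Of the measured markers of other cell types, the 2 or 3 endothelial markers with a row summed to at most 2.82 CPM (counts per 1000000 counts of a library) in a library, and the 2 or 3 fibroblast markers to at most 22.1 CPM. LYZ, a leukocyte marker that intestinal secretory cells also make, reached 1833 CPM in a 2-MiCit library of HT29. The libraries of DLD1 and SW948 were not alike: DLD1 control replicate 1 and SW948 2-MiCit replicate 2 held relatively more reads of short transcripts, with slopes of -0.33 and -0.25 in log2 level per doubling of transcript length, against the mean of their lines. Values without them stand beside the results they move.

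Promoter sequences are shown because these genes share known regulators and mostly moved together. RefSeq (GRCh38.p14) lists 17 start sites for the 10 genes, and all 10 matched. The letters ACGTG and GCGTG, the core of the HIF element, were searched on both strands (as CACGT and CACGC on the other) in the 250 bases before each start. ACGTG and CACGT overlap in CACGTG, the E-box that MYC binds, which then counts under both. At least 1 match stood before 12 of the 17 starts and 43.2% of the 35116 starts listed for all genes. Of the 17, 11 lay within 100 bases of a start in the GENCODE v29 annotation. The farthest, of PFKP, was 24398 bases away and held 3 matches. The 12 may thus include windows that are not promoters of the measured transcripts. A match is a description of letters and not a binding site. The windows of 3 enzymes that were lower with 2-MiCit in several lines, ENO1, PGK1 and TPI1, are printed with that of PKM, which was called in none, 5′ to 3′ on the gene's strand and with matches in capitals.
ENO1: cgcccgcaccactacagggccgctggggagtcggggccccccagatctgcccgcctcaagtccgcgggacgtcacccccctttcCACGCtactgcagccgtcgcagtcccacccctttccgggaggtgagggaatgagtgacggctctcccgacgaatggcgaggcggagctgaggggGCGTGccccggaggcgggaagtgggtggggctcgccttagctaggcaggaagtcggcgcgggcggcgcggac
PGK1: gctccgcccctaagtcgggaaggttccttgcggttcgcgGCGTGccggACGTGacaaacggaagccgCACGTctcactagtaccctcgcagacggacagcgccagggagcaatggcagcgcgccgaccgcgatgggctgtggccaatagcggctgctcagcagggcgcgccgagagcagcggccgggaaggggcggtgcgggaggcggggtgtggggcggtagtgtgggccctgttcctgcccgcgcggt
TPI1: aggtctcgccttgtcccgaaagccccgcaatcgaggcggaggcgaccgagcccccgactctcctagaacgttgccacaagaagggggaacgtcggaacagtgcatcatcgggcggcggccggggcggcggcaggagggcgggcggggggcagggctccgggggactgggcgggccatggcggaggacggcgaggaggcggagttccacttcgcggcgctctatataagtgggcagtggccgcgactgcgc
PKM: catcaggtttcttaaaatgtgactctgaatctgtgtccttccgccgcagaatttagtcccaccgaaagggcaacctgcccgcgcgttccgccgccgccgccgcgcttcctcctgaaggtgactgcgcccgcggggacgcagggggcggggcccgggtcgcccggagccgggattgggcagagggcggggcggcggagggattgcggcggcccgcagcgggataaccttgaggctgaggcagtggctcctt
ENO1 (chr1:8878687-8878936, minus strand) held 2 matches. PGK1 (chrX:78103998-78104247, plus strand) held 3, on both strands. Neither TPI1 (chr12:6867281-6867530, plus strand, the first of its listed starts) nor PKM (chr15:72231191-72231440, minus strand) held one in these windows. The window before the second listed start of TPI1 held 2. PGAM1, called lower in 3 lines and not printed, had no match before its listed start, 1658 bases from the nearest GENCODE start.

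The enzymes differed from each other far more than any of them differed with treatment. Levels between genes are given as CPM, scaled by edgeR's trimmed mean of M-values (TMM), per kilobase of transcript (CPM/kb), with the SD over 4 control libraries. GAPDH was the most abundant of the 10 in every line, between 2409.6 CPM/kb in SW948 and 3729 CPM/kb in DLD1. HK2 was the least abundant in 6 lines and PFKP in SW948. The 2 regulated early kinases also varied most between lines. HK2 was 2.38-fold higher in SW948 than in HCT116 and 4.17-fold higher in SW1417 than in SKCO1. For PFKP the ratio was 3.93 between HCT116 and SW948 and 3.51 between SW1417 and SKCO1. SW948 thus had the highest HK2 and the lowest PFKP of its table. TPI1 and GAPDH had the smallest ratios, 1.27 for TPI1 in the first table and 1.15 for GAPDH in the other.

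**Figure D1:**
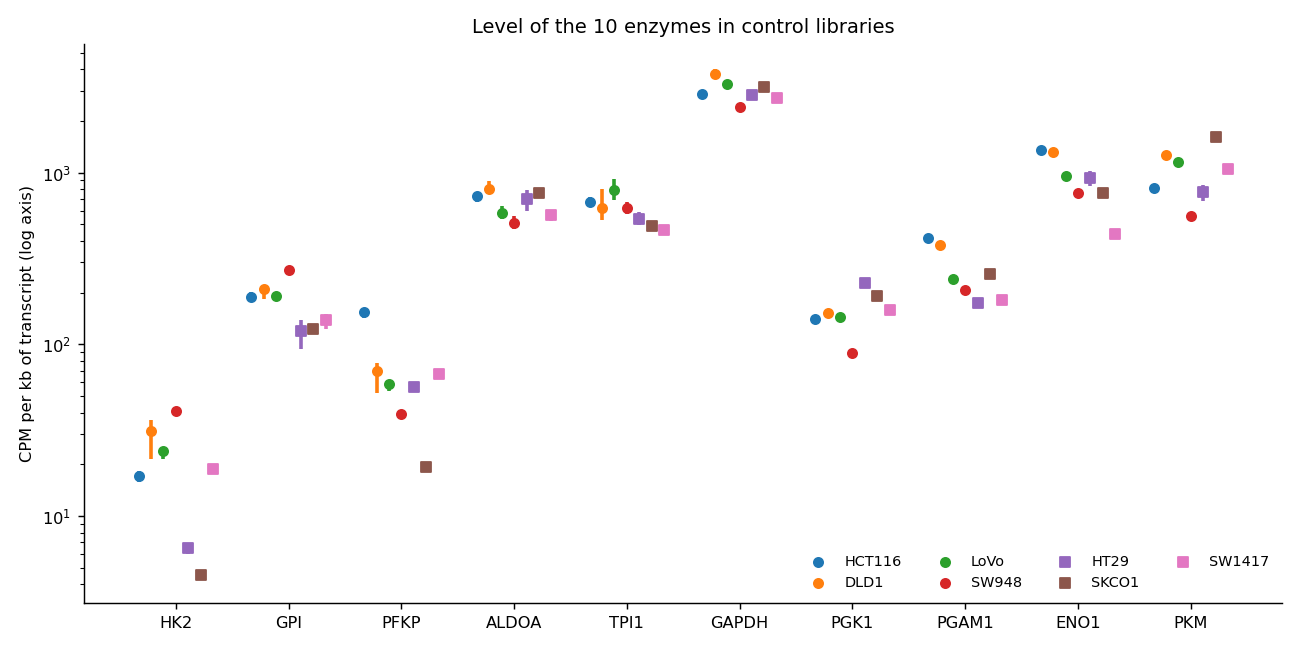
Control level of the 10 enzymes in pathway order, in CPM per kilobase of transcript on a log axis. Points are means of 4 control libraries, lines run from the lowest to the highest library, circles are lines of the first table and squares lines of the other. GAPDH stands at the top and HK2 or PFKP at the bottom in every line, and HK2 and PFKP spread most between lines.

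Neighbours in the order of the lines were compared within each table by edgeR's quasi-likelihood test, with the threshold at a Benjamini-Hochberg adjusted p of 0.05 over all tested genes. HK2 measured, in CPM/kb, 40.8 ± 1.77 in SW948, 31.3 ± 6.77 in DLD1, 23.8 ± 1.69 in LoVo and 17.1 ± 1.29 in HCT116, each step down past the threshold. In the other table it measured 18.9 ± 0.579 in SW1417, 6.49 ± 0.345 in HT29 and 4.53 ± 0.152 in SKCO1, each step down past the threshold. GPI, the isomerase, measured 271 ± 9.37 in SW948, 208 ± 16.4 in DLD1, 189.8 ± 7.31 in LoVo and 188 ± 9.63 in HCT116, where DLD1 and LoVo (adjusted p = 0.0695) and LoVo and HCT116 (adjusted p = 0.866) did not differ past the threshold. Its levels in the other table were 139 ± 11.8 in SW1417, 122 ± 3.85 in SKCO1 and 119 ± 18.5 in HT29, with no step past the threshold (SW1417 and SKCO1, adjusted p = 0.101; SKCO1 and HT29, adjusted p = 0.775). HK2 thus separated every neighbouring pair of lines, and GPI only SW948 from DLD1. PFKP measured 154 ± 8.66 in HCT116, 69.4 ± 12.2 in DLD1, 59.0 ± 3.58 in LoVo and 39.1 ± 1.31 in SW948, each step down past the threshold. Its other values were 67.5 ± 2.48 in SW1417, 56.6 ± 1.88 in HT29 and 19.2 ± 0.892 in SKCO1, each step down past the threshold. ALDOA, the aldolase of most tissues, measured 798 ± 61.1 in DLD1, 732 ± 41.3 in HCT116, 578 ± 45.1 in LoVo and 512 ± 39.4 in SW948, where DLD1 and HCT116 (adjusted p = 0.164) did not differ past the threshold. PFKP separated every neighbouring pair, with its widest gap between HCT116 and DLD1 in the first table. Its step between DLD1 and LoVo only just passed (adjusted p = 0.0491). For ALDOA the other values were 758 ± 20.7 in SKCO1, 704 ± 83.2 in HT29 and 566 ± 34.1 in SW1417, where SKCO1 and HT29 (adjusted p = 0.221) did not differ past the threshold. TPI1 measured 787 ± 95.5 in LoVo, 672 ± 38.0 in HCT116, 623 ± 125 in DLD1 and 620.2 ± 44.6 in SW948, with no step past the threshold (LoVo and HCT116, adjusted p = 0.0942; HCT116 and DLD1, adjusted p = 0.449; DLD1 and SW948, adjusted p = 0.911). Its values in the other table were 539 ± 38.9 in HT29, 491 ± 9.49 in SKCO1 and 461 ± 6.07 in SW1417, where SKCO1 and SW1417 (adjusted p = 0.0512) did not differ past the threshold. TPI1 was the only enzyme with no separated neighbours in the first table. Without DLD1 control replicate 1, TPI1 did differ between LoVo and HCT116 (adjusted p = 0.0145) and between HCT116 and DLD1 (adjusted p = 0.0139), and GPI between DLD1 and LoVo (adjusted p = 0.00313).

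GAPDH measured 3729 ± 191 in DLD1, 3260.3 ± 138 in LoVo, 2866 ± 107 in HCT116 and 2409.6 ± 72.0 in SW948, each step down past the threshold. In the more deeply sequenced lines it measured 3136 ± 80.8 in SKCO1, 2821 ± 97.1 in HT29 and 2718 ± 17.2 in SW1417, where HT29 and SW1417 (adjusted p = 0.0801) did not differ past the threshold. PGK1, which makes the first ATP of the pathway, measured 152 ± 6.38 in DLD1, 143 ± 5.17 in LoVo, 140.2 ± 6 in HCT116 and 89.1 ± 2.74 in SW948, where DLD1 and LoVo (adjusted p = 0.148) and LoVo and HCT116 (adjusted p = 0.593) did not differ past the threshold. PGK1 was low in SW948 and close together in the other 3 lines of that table. Its remaining values were 227 ± 6.67 in HT29, 191 ± 7 in SKCO1 and 158 ± 1.84 in SW1417, each step down past the threshold. PGAM1, the mutase, measured 414 ± 6.38 in HCT116, 378 ± 8.54 in DLD1, 241 ± 13.7 in LoVo and 208 ± 9.47 in SW948, each step down past the threshold. The order for PGAM1 in the other table was 256 ± 2.55 in SKCO1, 182 ± 4.27 in SW1417 and 173 ± 2.67 in HT29, each step down past the threshold. All steps of PGAM1 passed the threshold in both tables. ENO1, the enolase, measured 1358 ± 38.0 in HCT116, 1321 ± 27.2 in DLD1, 949.7 ± 24.6 in LoVo and 759.9 ± 22.4 in SW948, where HCT116 and DLD1 (adjusted p = 0.555) did not differ past the threshold. ENO1 in the other table measured 936 ± 78.4 in HT29, 763 ± 8.55 in SKCO1 and 439 ± 9.61 in SW1417, each step down past the threshold. PKM, the last kinase, measured 1262 ± 20.6 in DLD1, 1156 ± 30.6 in LoVo, 818 ± 20.8 in HCT116 and 555 ± 25.0 in SW948, each step down past the threshold. For PKM the other values were 1616 ± 12.9 in SKCO1, 1047 ± 27.9 in SW1417 and 776 ± 71.3 in HT29, each step down past the threshold. ENO1 was highest in HCT116 and HT29, and PKM in DLD1 and SKCO1. Some of these steps rested on few libraries. With 1 control library left out, PFKP between DLD1 and LoVo passed in 1 of 16 fits, PKM between DLD1 and LoVo in 2, PGAM1 between HCT116 and DLD1 in 5 and ALDOA between LoVo and SW948 in 11. PGAM1 between SW1417 and HT29 passed in 9 of 12.

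Most genes differed between lines, and the enzymes were read against that share. In control libraries, the number of the 10 enzymes that differed, with the percentage of all tested genes in brackets, was 6 between HCT116 and DLD1 (62.9%), 7 between HCT116 and LoVo (67.4%) and 9 between HCT116 and SW948 (73.8%). It was 8 between DLD1 and LoVo (66.5%), 9 between DLD1 and SW948 (70.3%) and 10 between LoVo and SW948 (68.7%). In the other table it was 8 between HT29 and SW1417 (82.8%), 8 between HT29 and SKCO1 (84.1%) and 8 between SW1417 and SKCO1 (84.3%). Without DLD1 control replicate 1 the count was 7 between HCT116 and DLD1 (66.2%), 8 between HCT116 and LoVo (71.9%) and 9 between DLD1 and LoVo (68.3%). Counts of this size lie close to the background.

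With 2-MiCit most of the enzymes were called lower in 3 of the 7 lines, and none was called higher in any line. In HCT116, 9 of the 10 passed the test as lower, all but PKM, where 18% of all tested genes did. In SKCO1, 8 were lower, all but HK2 and PKM (background 10.8%). In SW1417, 7 were lower, all but HK2, GPI and PKM (background 4.05%). In HT29 only PFKP was called lower (background 3.02%). No enzyme was called in DLD1 (background 0%), LoVo (0.702%) or SW948 (0%). Abundant genes are called more easily: among genes at least as abundant as the least abundant enzyme, 41.7% were lower in HCT116, 20.1% in SKCO1, 11.5% in SW1417, 5.27% in HT29 and 2.19% in LoVo, with 0% in DLD1 and in SW948. All 4 2-MiCit libraries lay below all 4 control libraries for 9 enzymes in HCT116, 8 in SKCO1 and 7 in SW1417, against 17.2%, 12.5% and 7.68% of all genes. They did so for 5 in DLD1, 4 in LoVo, 2 in HT29 and 0 in SW948, against 6.1%, 6.43%, 7.31% and 2.71%. DLD1 and LoVo thus had separate groups for some enzymes without a call. With DLD1 control replicate 1 left out, 6 enzymes had separate groups in DLD1, and with SW948 2-MiCit replicate 2 left out, 1 had in SW948, still with 0 enzymes called in either line.

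The changes were small. The median log2 fold change of the 10 enzymes was -0.34 in HCT116, -0.17 in DLD1, -0.13 in LoVo and -0.02 in SW948. HT29 had -0.03, SKCO1 -0.15 and SW1417 -0.14. DLD1 and LoVo, with no enzyme called, thus had medians close to those of SKCO1 and SW1417. Without the length-biased library the median was -0.16 in DLD1 and -0.04 in SW948. The median of all tested genes lay between -0.002 and 0.03 in the 7 lines. At an unadjusted p below 0.05, 6 enzymes were lower in DLD1, 3 in LoVo and 0 in SW948. Of all tested genes, 1171 of 13551 were lower by that measure in DLD1, 1505 of 13677 in LoVo and 409 of 13334 in SW948. DESeq2 called 2 enzymes lower in DLD1, 3 in LoVo and 0 in SW948, with 150, 477 and 0 of all genes called lower. In 1 fit over all lines of a table, which shares the spread between lines, 3 enzymes were lower in SW1417, 4 in DLD1 and 1 in LoVo. That fit called 227 of 16090 genes lower in SW1417, 619 of 15800 in DLD1 and 82 of 15800 in LoVo. The libraries of DLD1 also varied most, with a biological coefficient of variation of 0.183 against 0.0692 in SW1417. Levels below are CPM scaled by TMM within a line, with the SD over 4 libraries, and changes are log2 fold changes of 2-MiCit over control.

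**Figure D2:**
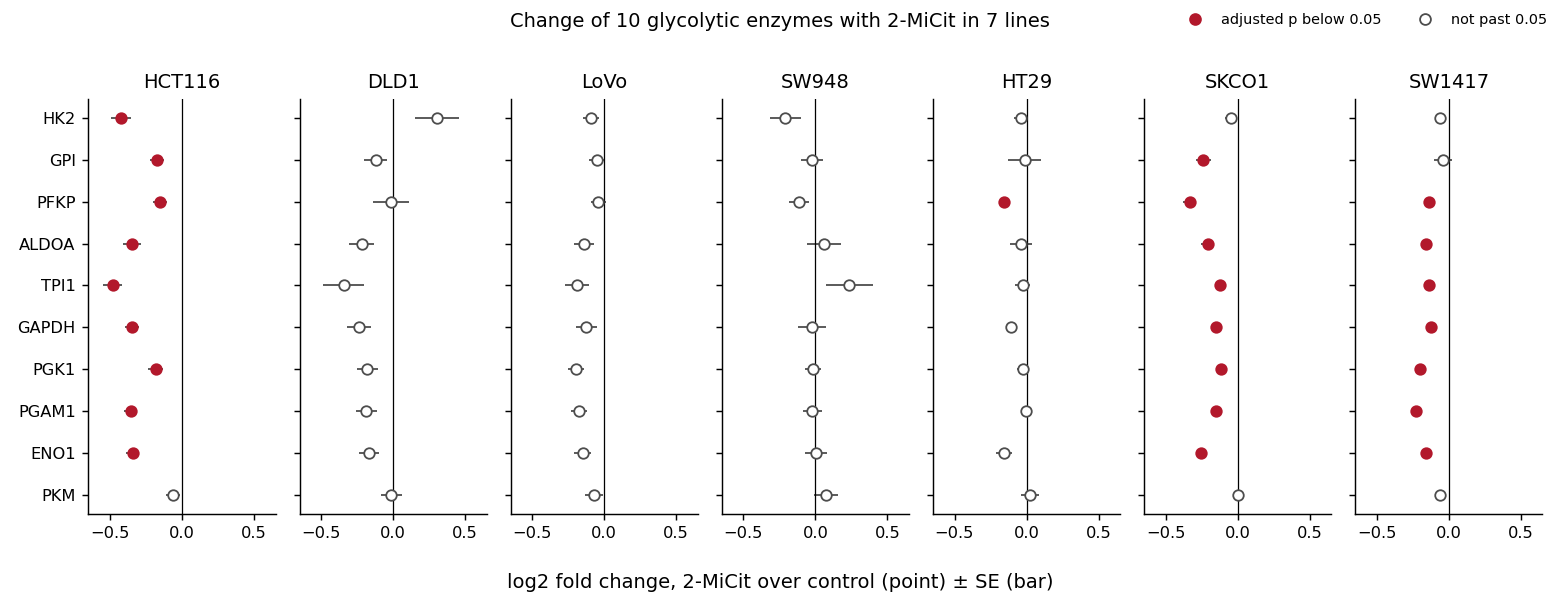
Log2 fold change of each enzyme, 2-MiCit over control, with its standard error, in pathway order from top to bottom and 1 panel per line. Filled points passed an adjusted p below 0.05 in edgeR; 9 do in HCT116, 8 in SKCO1, 7 in SW1417 and 1 in HT29, all to the left of 0.

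HK2 (ENSG00000159399, chr2:74833981-74893359, plus strand) commits glucose to the cell by phosphorylating it. In HCT116 it had 67.9, 78.5, 68.3 and 77.6 CPM with 2-MiCit, against 91.2, 103, 94.0 and 104 CPM in control. The groups did not overlap, and the change was -0.43 ± 0.07 (log2, SE; adjusted p = 0.0011). In DLD1 it had 233, 219, 195 and 208 CPM with 2-MiCit, against 119, 181, 199 and 194 CPM in control. Control replicate 1 was the low one there, and the groups overlapped, with a change of 0.30 ± 0.15 (log2, SE; adjusted p = 0.311). Without that library the change was 0.16 (adjusted p = 0.261). In the other 5 lines the log2 change of HK2 lay between -0.21 in SW948 and -0.04 in HT29, with no call. GPI (ENSG00000105220, chr19:34359480-34402413, plus strand), the isomerase between the early kinases, was called lower in HCT116 and SKCO1. In SKCO1 it had 299, 324, 357 and 343 CPM with 2-MiCit, against 389, 393, 405 and 374 CPM in control. The groups were separate, and the change was -0.24 ± 0.05 (log2, SE; adjusted p = 0.0171). In HCT116 it averaged 539 ± 12.7 CPM with 2-MiCit and 609 ± 27.7 CPM in control, a change of -0.18 ± 0.05 (log2, SE; adjusted p = 0.0156). In the other 5 lines the log2 change was between -0.12 in DLD1 and -0.01 in HT29.

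PFKP (ENSG00000067057, chr10:3066333-3137712, plus strand), the platelet-type phosphofructokinase, was called in the most lines, 4 of 7. In SKCO1 it had 38.3, 41.9, 41.8 and 44.0 CPM with 2-MiCit, against 54.2, 51.8, 54.2 and 48.9 CPM in control. This was the largest change of an enzyme in that line, -0.33 ± 0.04 (log2, SE; adjusted p = 0.000169). In HT29 it had 137, 137, 134 and 139 CPM with 2-MiCit, against 155, 158, 147 and 151 CPM in control. The groups did not overlap, and the change was -0.16 ± 0.03 (log2, SE; adjusted p = 0.0185). In SW1417 it averaged 156 ± 3.23 CPM with 2-MiCit and 172 ± 5.97 CPM in control, a change of -0.14 ± 0.03 (log2, SE; adjusted p = 0.00793). In HCT116 it averaged 381 ± 10.6 CPM with 2-MiCit and 423 ± 20.3 CPM in control, a change of -0.15 ± 0.05 (log2, SE; adjusted p = 0.033). The groups were separate in both lines. The HCT116 call was lost in 6 of 8 fits without 1 library and in 1 fit over all lines of the table (adjusted p = 0.258). The HT29 call was lost without control replicate 1 (adjusted p = 0.0574) or 2-MiCit replicate 3 (adjusted p = 0.0597).

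ALDOA (ENSG00000149925, chr16:30064164-30070457, plus strand) splits fructose bisphosphate into the trioses. In HCT116 it had 928, 919.9, 1006 and 851 CPM with 2-MiCit, against 1224, 1219, 1192 and 1077 CPM in control. All 4 2-MiCit libraries were below all controls, with a change of -0.35 ± 0.06 (log2, SE; adjusted p = 0.00196). In SKCO1 it averaged 1041 ± 76.5 CPM with 2-MiCit and 1203 ± 35.2 CPM in control, a change of -0.21 ± 0.05 (log2, SE; adjusted p = 0.0129). In SW1417 it averaged 754 ± 23.0 CPM with 2-MiCit and 841 ± 49.0 CPM in control. There the groups overlapped, the change was -0.16 ± 0.04 (log2, SE; adjusted p = 0.0434), and the call was lost in 6 of 8 fits without 1 library. ALDOA in DLD1 averaged 1063 ± 76.2 CPM with 2-MiCit and 1238 ± 97.3 CPM in control, a change of -0.22 ± 0.09 (log2, SE; adjusted p = 0.273) with separate groups. TPI1 (ENSG00000111669, chr12:6867119-6870948, plus strand) interconverts the triose phosphates and showed the largest change of any enzyme. The HCT116 libraries had 745, 688, 803 and 681 CPM with 2-MiCit, against 1103, 1005, 1017 and 949 CPM in control. The groups did not overlap, and the change was -0.48 ± 0.07 (log2, SE; adjusted p = 0.00044). In SW1417 it had 581, 582, 581 and 599 CPM with 2-MiCit, against 649, 632, 647 and 653 CPM in control, a change of -0.14 ± 0.02 (log2, SE; adjusted p = 0.00102). In SKCO1 it averaged 676 ± 29.2 CPM with 2-MiCit and 734 ± 15.8 CPM in control, a change of -0.12 ± 0.03 (log2, SE; adjusted p = 0.0119). In SW948 it had 872, 1478, 918 and 961 CPM with 2-MiCit, against 836, 862, 977 and 917 CPM in control. The second 2-MiCit library stood far above the other 7, and the log2 change of 0.24 with it was 0.03 without it, neither past the threshold. In DLD1 control replicate 1 was the high library, and the uncalled log2 change of -0.34 was -0.19 without it.

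**Figure D3:**
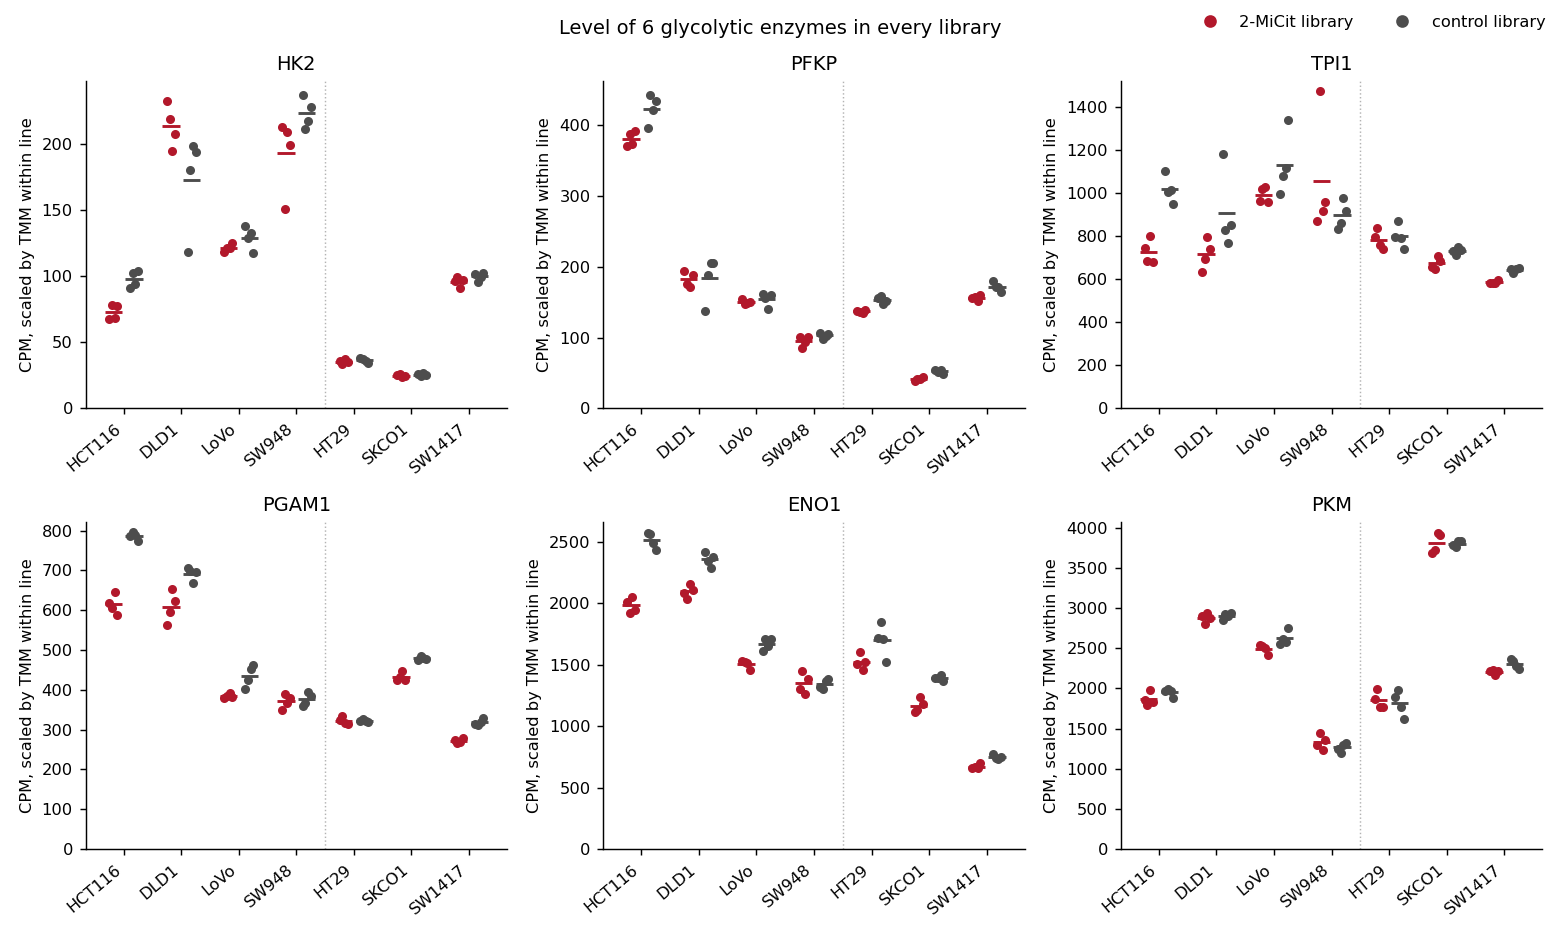
Level of HK2, PFKP, TPI1, PGAM1, ENO1 and PKM in every library, in CPM scaled within a line, with 2-MiCit left of control in each line. Bars are means of 4 libraries and the dotted line separates the tables. The 2-MiCit points lie below all control points for ENO1 and PGAM1 in HCT116, DLD1, LoVo, SKCO1 and SW1417, while those of PKM overlap in 5 lines.

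GAPDH (ENSG00000111640, chr12:6533927-6538374, plus strand) oxidises glyceraldehyde phosphate and is often used to normalise other genes. In HCT116 it had 3007, 2954, 3124 and 2862 CPM with 2-MiCit, against 3771, 3932, 3880.2 and 3626 CPM in control. The groups were apart, with a change of -0.35 ± 0.05 (log2, SE; adjusted p = 0.000462). In SW1417 it averaged 3062 ± 30.1 CPM with 2-MiCit and 3331 ± 25.3 CPM in control, a change of -0.12 ± 0.02 (log2, SE; adjusted p = 0.00111). In SKCO1 it averaged 3695 ± 157 CPM with 2-MiCit and 4106 ± 115 CPM in control, a change of -0.15 ± 0.03 (log2, SE; adjusted p = 0.00563). Its 4 2-MiCit libraries were also below all controls in DLD1 and HT29, with changes of -0.24 (adjusted p = 0.256) and -0.11 (adjusted p = 0.0677), neither called. Processed copies of GAPDH, TPI1 and PGAM1 held at most 0.375% of their parent's counts in the first table. In the other the highest was PGAM4 in SW1417, at 2.18% of PGAM1, so reads shared between copies leave these 3 levels slightly uncertain. PGK1 (ENSG00000102144, chrX:77910739-78129296, plus strand) makes ATP from bisphosphoglycerate and was called lower in HCT116, SKCO1 and SW1417. In SW1417 it had 483, 473, 483 and 489 CPM with 2-MiCit, against 553, 561, 548 and 549 CPM in control. The groups were apart, and its adjusted p was the smallest of any enzyme in that line, with a change of -0.20 ± 0.02 (log2, SE; adjusted p = 4.76e-05). In HCT116 it averaged 467 ± 20.7 CPM with 2-MiCit and 530.4 ± 21.6 CPM in control, a change of -0.18 ± 0.05 (log2, SE; adjusted p = 0.0171). In SKCO1 it averaged 658 ± 9.22 CPM with 2-MiCit and 713 ± 25.7 CPM in control, a change of -0.12 ± 0.03 (log2, SE; adjusted p = 0.0073). In LoVo it had 444, 461, 463 and 429.5 CPM with 2-MiCit, against 486, 518, 520.2 and 536 CPM in control. The groups did not overlap there, yet the change of -0.20 ± 0.05 (log2, SE; adjusted p = 0.0757) did not pass the threshold.

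PGAM1 (ENSG00000171314, chr10:97426160-97433441, plus strand) moves the phosphate of phosphoglycerate. Its level in HCT116 was 618, 606, 645 and 589 CPM with 2-MiCit, against 786, 796, 788 and 775 CPM in control. The groups were apart, and its adjusted p was the smallest of any enzyme in that line, with a change of -0.36 ± 0.04 (log2, SE; adjusted p = 0.000235). In SW1417 it had 273, 267, 269.8 and 279 CPM with 2-MiCit, against 315, 311, 319 and 330.1 CPM in control. All 4 2-MiCit libraries were again the lower ones, with a change of -0.23 ± 0.02 (log2, SE; adjusted p = 6.64e-05). In SKCO1 it averaged 433 ± 10.7 CPM with 2-MiCit and 479 ± 4.51 CPM in control, a change of -0.15 ± 0.02 (log2, SE; adjusted p = 0.000564). In HT29 it had 325, 333, 318 and 313 CPM with 2-MiCit, against 322, 327, 321 and 319 CPM in control. Those groups overlapped, at a log2 change of -0.0009 ± 0.03 (SE, adjusted p = 0.991). ENO1 (ENSG00000074800, chr1:8861000-8879250, minus strand) makes phosphoenolpyruvate. In HCT116 it had 2007, 1919, 2052 and 1946 CPM with 2-MiCit, against 2566, 2565, 2486 and 2428 CPM in control. The change was -0.34 ± 0.05 (log2, SE; adjusted p = 0.000338). In SKCO1 it had 1117, 1134, 1234 and 1183 CPM with 2-MiCit, against 1393, 1393, 1414 and 1369 CPM in control. The change was -0.25 ± 0.03 (log2, SE; adjusted p = 8.14e-05), and the groups were separate in both lines. In SW1417 it averaged 671 ± 20.0 CPM with 2-MiCit and 749.8 ± 16.0 CPM in control, a change of -0.16 ± 0.02 (log2, SE; adjusted p = 0.00144). Its 2-MiCit libraries lay below all controls in DLD1 and LoVo too, where the log2 changes of -0.17 (adjusted p = 0.278) and -0.15 (adjusted p = 0.176) were not called.

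PKM (ENSG00000067225, chr15:72199029-72231822, minus strand) makes pyruvate and was called in no line. Gene counts cannot separate its M1 and M2 isoforms. Its level in HCT116 was 1858, 1798, 1979.5 and 1836 CPM with 2-MiCit, against 1965, 1993, 1962 and 1883 CPM in control. The groups overlapped, with a change of -0.06 ± 0.05 (log2, SE; adjusted p = 0.337). In SKCO1, where it was most abundant, it had 3689, 3722, 3936 and 3904 CPM with 2-MiCit, against 3783, 3762, 3833 and 3830.4 CPM in control. The change was 0.0041 ± 0.03 (log2, SE; adjusted p = 0.944). In SW1417 it averaged 2208 ± 27.3 CPM with 2-MiCit and 2306 ± 57.2 CPM in control with separate groups, a change of -0.06 ± 0.02 (log2, SE; adjusted p = 0.101). PKM was called lower in SW1417 by DESeq2 (adjusted p = 0.0316) and in HCT116 once the trend with transcript length was removed (adjusted p = 0.0339). Over the 7 lines its log2 change stayed between -0.07 in LoVo and 0.07 in SW948.

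Other measures moved in the lines where most enzymes were called lower, and some of them in other lines too. The summed neural markers ran from 88.7 to 108 CPM with 2-MiCit and 132 to 146 CPM in control in HCT116. In SKCO1 they ran from 407 to 438 CPM with 2-MiCit and 464 to 481 CPM in control, and in SW1417 from 26.3 to 30.3 CPM with 2-MiCit and 31.8 to 37.8 CPM in control. TUBB3, a beta tubulin that tumour lines often express, made up most of each sum and was lower in all 3 lines. Of the 6 listed neural markers, 5 had a row in the first table and 4 in the other. MAP2 was higher in HCT116, and no other neural marker was called in these lines. The leukocyte markers with a row, 3 of the 7 listed in the first table and 4 in the other, summed to 5.47 to 7.33 CPM with 2-MiCit and 7.33 to 9.16 CPM in control in HCT116. The sum ran from 80.9 to 86.1 CPM with 2-MiCit and 74.7 to 79.8 CPM in control in SKCO1, and from 24.9 to 27.3 CPM with 2-MiCit and 26.8 to 31.0 CPM in control in SW1417. CD68, a lysosomal protein of macrophages that other cells also make, was lower in all 3 lines, with log2 changes of -0.49 (adjusted p = 0.0163) in HCT116, -0.17 (adjusted p = 0.0159) in SKCO1 and -0.49 (adjusted p = 0.000438) in SW1417. LYZ was higher in SKCO1, at 0.23 (log2, adjusted p = 0.00114). No fibroblast or endothelial marker was called in these lines. Outside these 3 lines no neural or leukocyte marker was called, yet some leaned the same way. The neural sum in DLD1 ran from 77.8 to 91.1 CPM with 2-MiCit and 95.4 to 127 CPM in control. TUBB3 had a log2 change of -0.37 in DLD1, -0.37 in HT29, -0.13 in LoVo and 0.005 in SW948. CD68 had -0.49 in DLD1, -0.36 in SW948, -0.24 in HT29 and -0.06 in LoVo. The summed epithelial markers ran from 5975 to 7009 CPM with 2-MiCit and 4537 to 5033 CPM in control in HCT116, where 3 of 6 tested were higher and 2 lower. In SKCO1 they ran from 14504 to 16146 CPM with 2-MiCit and 15465 to 16080.0 CPM in control, with 2 of 9 higher (CDH1 and VIL1). In SW1417 they ran from 9112 to 9358 CPM with 2-MiCit and 9246 to 10414 CPM in control, with 1 of 9 higher (CDX1) and 2 lower (KRT8 and KRT19). The mean slope of the libraries on log2 length was 0.04 with 2-MiCit and -0.04 in control in HCT116. This was not particular to HCT116. LoVo had 0.03 with 2-MiCit and -0.03 in control, and DLD1 0.08 and -0.08. SW948 ran the other way, with -0.055 and 0.055. The means of DLD1 and SW948 include their length-biased libraries. Means in the other table were smaller, the largest being 0.01 and -0.01 for SKCO1. Slopes of single libraries overlapped between the groups of every line. The enzymes' transcripts had a median of 2064 bases, against 2451 and 2434 over all genes of the tables. With the length trend removed, 10 enzymes were lower in HCT116, 8 in SKCO1, 7 in SW1417, 3 in LoVo and 2 in HT29. The setting also raised the number of all tested genes called lower, from 2489 to 3505 in HCT116 and from 1589 to 2520 in SKCO1. That number rose from 570 to 639 in SW1417, from 96 to 400 in LoVo and from 419 to 678 in HT29. The median of all genes in HCT116 went from 0.03 to -0.04 (log2). The extra enzyme calls thus cannot be set apart from this general shift. The part of the markers in the result was not tested.

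Whether the response differed between lines was asked of the difference itself, with the treatment-by-line interaction in edgeR. In the first table, 5 of the 10 enzymes differed between the 4 lines, where 18% of all tested genes did. These were HK2 (adjusted p = 0.0146), TPI1 (adjusted p = 0.0282), GAPDH (adjusted p = 0.0431), PGAM1 (adjusted p = 0.0159) and ENO1 (adjusted p = 0.00524). PFKP (adjusted p = 0.0436) and PGAM1 (adjusted p = 0.00158) differed between the lines of the other table, against a background of 5.49%. PGAM1 was the only enzyme called in both tables by this test.

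HCT116 and SW948 were the pair that differed most often, in 5 enzymes, with 18.7% of all genes called. The effect in HCT116 minus that in SW948 was -0.33 (log2, adjusted p = 0.000687) for ENO1. It was -0.31 (log2, adjusted p = 0.00221) for PGAM1, -0.30 (log2, adjusted p = 0.0134) for GAPDH, -0.38 (log2, adjusted p = 0.0252) for ALDOA and -0.69 (log2, adjusted p = 0.0073) for TPI1. For each of the 5 the effect was the more negative in HCT116. HK2 separated HCT116 from DLD1, at -0.71 (log2, adjusted p = 0.00503), where 8.34% of genes were called. Without both length-biased libraries that difference was -0.59 (log2, adjusted p = 0.000109). DLD1 minus SW948 was 0.51 (log2, adjusted p = 0.0391) for HK2 and -0.58 (log2, adjusted p = 0.0384) for TPI1, with a background of 13.2%. Neither was called without both libraries, where the difference was 0.26 (log2, adjusted p = 0.185) for HK2 and -0.23 (log2, adjusted p = 0.317) for TPI1, with 0.806% of genes called. Both calls were also lost without DLD1 control replicate 1 alone, without SW948 2-MiCit replicate 2 alone and without each of 6 other libraries. No enzyme was called between HCT116 and LoVo (background 6.04%), between DLD1 and LoVo (0.506%) or between LoVo and SW948 (0.038%). Without both libraries, HCT116 and LoVo differed in 4 enzymes (background 10.5%), HK2 (adjusted p = 0.00967), GAPDH (adjusted p = 0.0222), PGAM1 (adjusted p = 0.0404) and ENO1 (adjusted p = 0.0106), and the effect was the more negative in HCT116 for each. HCT116 and DLD1 then differed in 2 enzymes (background 11.5%) and HCT116 and SW948 in 6 (background 20.2%), where TPI1 had -0.52 (log2, adjusted p = 0.00104). PGAM1 differed between HT29 and SW1417, at 0.22 (log2, adjusted p = 0.00089), HT29 minus SW1417, with 3.44% of genes called. Its effect also differed between HT29 and SKCO1, at 0.15 (log2, adjusted p = 0.0171), HT29 minus SKCO1, with 4.14% called. In both pairs PGAM1 was lower with 2-MiCit in the line set against HT29 and level in HT29. No enzyme differed between SW1417 and SKCO1 (background 1.03%).

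These calls did not rest equally on all libraries. With each library left out in turn, the interaction was called in 32 of 32 fits for HK2, 32 of 32 for PGAM1 and 32 of 32 for ENO1 in the first table. It was called in 24 of 24 for PGAM1 in the other. TPI1 was called in 29 of 32 and GAPDH in 10 of 32, and PFKP in 5 of 24 of the other table. Without SW948 2-MiCit replicate 2, the library in which TPI1 was high, 3 enzymes of the first table were called, and TPI1 was not (adjusted p = 0.0752). Without both length-biased libraries the 5 enzymes of the first table were all called, TPI1 at an adjusted p of 0.00729 and GAPDH at 0.0214, against 18.4% of all genes. Among the pairs of lines, the ALDOA difference between HCT116 and SW948 was called in 26 of 32 fits. With RLE factors the PFKP interaction was not called (adjusted p = 0.0521).

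Summed over the 10 enzymes, the level was lower with 2-MiCit in 6 lines. The sum in HCT116 was 10566 ± 385 CPM with 2-MiCit and 12907 ± 372 CPM in control (SD, n = 4 each), a ratio of 0.819. In DLD1 the ratio was 0.893, in LoVo 0.918, in SKCO1 0.921 and in SW1417 0.921. In these 5 lines the groups did not overlap. In HT29 it was 0.955 and in SW948 1.016, with overlapping groups. Without SW948 2-MiCit replicate 2 the ratio in SW948 was 0.976, and without DLD1 control replicate 1 that in DLD1 was 0.907. Averaged over a group, the 10 enzymes took between 0.873% of all counts in SW1417 with 2-MiCit and 1.41% in DLD1 controls. As a share of the raw library total, without TMM scaling, the HCT116 ratio was 0.866. GAPDH, PKM and ENO1 make up most of the sum, which was not tested. In bulk RNA, fewer cells expressing these genes and a lower relative level per cell cannot be told apart.

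**Figure D4:**
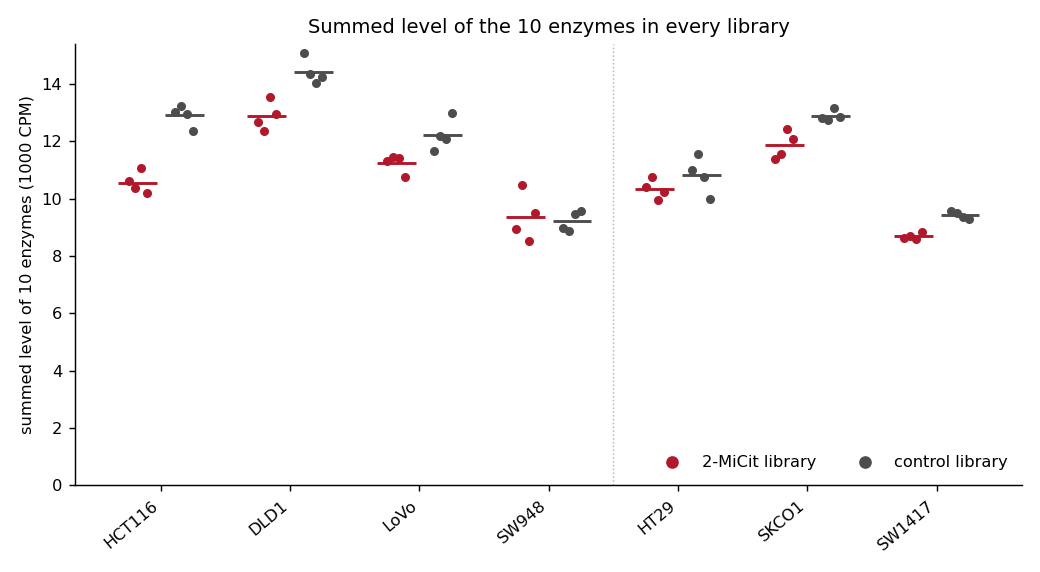
Summed level of the 10 enzymes in every library, in units of 1000 CPM scaled within a line, with 2-MiCit left of control in each line and bars at the means of 4 libraries. All 2-MiCit libraries lie below all control libraries in HCT116, DLD1, LoVo, SKCO1 and SW1417.

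Several steps have more than 1 enzyme, and the lines used them differently. In HT29 and SKCO1 the main hexokinase per length was HKDC1, at 44.0 and 33.8 CPM/kb in control, against 6.49 and 4.53 CPM/kb for HK2. In DLD1 HKDC1 was near 0 (0.0187 CPM/kb), and HK1 (34.4) and HK2 (31.3) were close. The share of HK2 in the summed HK1, HK2 and HKDC1 was 32.7% ± 1.11 with 2-MiCit and 38.7% ± 0.334 in control in HCT116 (SD, n = 4 each), the largest shift. In SW948 it was 61.6% ± 4.51 with 2-MiCit and 65.6% ± 0.941 in control. In SKCO1 it was 8.38% ± 0.437 with 2-MiCit and 8.11% ± 0.31 in control. HK2 was thus the main hexokinase in SW948 and a minor one in SKCO1, with and without 2-MiCit. PFKP held 49.8% ± 1.14 with 2-MiCit and 51.9% ± 1.77 in control of the phosphofructokinases in HCT116. In HT29 it held 31.9% ± 1.06 with 2-MiCit and 35.4% ± 0.755 in control. In SKCO1 it held 10.6% ± 0.511 with 2-MiCit and 12.8% ± 0.499 in control, and in SW1417 23.6% ± 0.257 with 2-MiCit and 25.6% ± 0.28 in control. The groups did not overlap in these last 3 lines. ALDOA made up over 98% and ENO1 over 95% of their steps in every group. The 28 shares were tested with a two-sided exact permutation test of 4 against 4 libraries, where the smallest possible p is 0.0286. HK2 in HCT116 and PFKP in HT29, SKCO1 and SW1417 were among the shares that reached it. The smallest adjusted p was 0.0889, and no share passed. With 28 tests a share can pass only if most of them reach the smallest p at once. The lack of a call therefore cannot decide whether a share moved. The share of PKM was not analysed here.

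**Figure D5:**
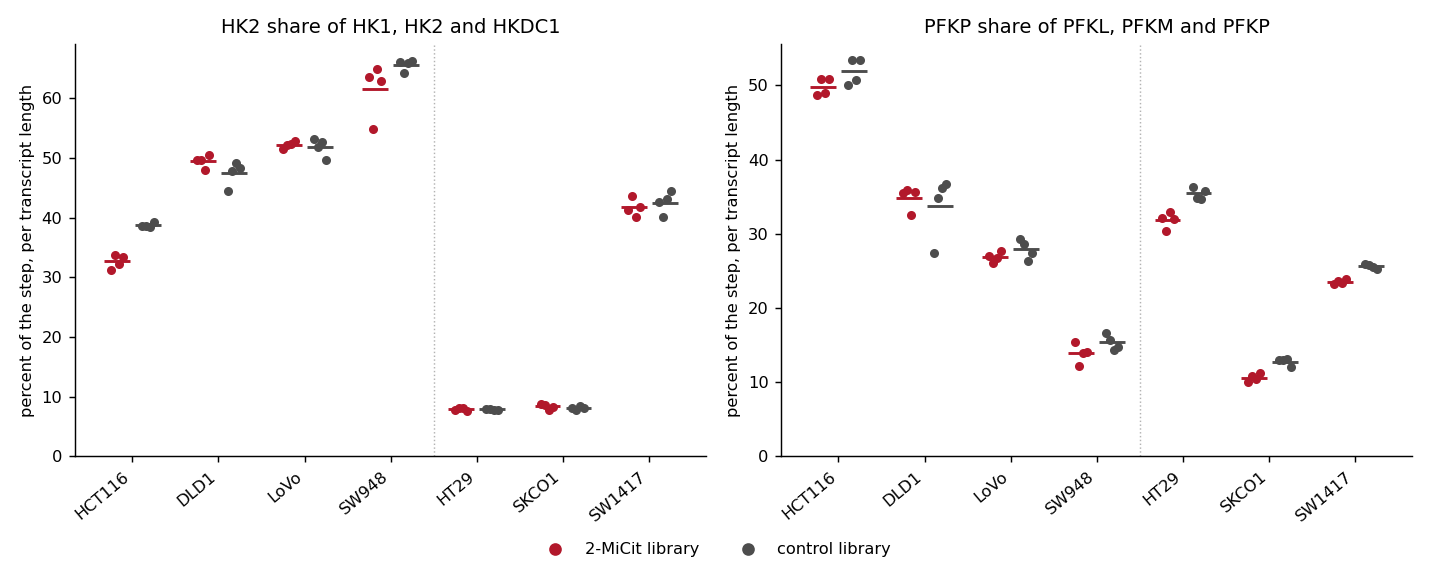
Share of HK2 among 3 hexokinases and of PFKP among 3 phosphofructokinases in every library, in percent of the summed CPM per kilobase, with 2-MiCit left of control. HK2 holds 61.6% with 2-MiCit and 65.6% in control in SW948 and 7.93% and 7.88% in HT29, and the PFKP points with 2-MiCit lie below all controls in HT29, SKCO1 and SW1417.

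Genes around the pathway were called in both directions. For comparison, 19% of tested genes were higher in HCT116, 0.148% in DLD1, 1.59% in LoVo and 0% in SW948. SKCO1 had 8.1%, HT29 4.65% and SW1417 2.94%. The shares lower were 18%, 0%, 0.702%, 0%, 10.8%, 3.02% and 4.05% in the same order of lines. The other isozymes were 2 higher and 3 lower of 9 in HCT116, 1 higher and 2 lower of 9 in SKCO1 and 1 higher and 1 lower of 10 in SW1417, and in the remaining lines only HKDC1 was called, lower in LoVo. Their median log2 change in HCT116 was -0.07, against 0.03 over all genes. PFKM, the muscle phosphofructokinase, was lower in HCT116, with 131 ± 3.53 CPM with 2-MiCit against 159 ± 3.32 CPM in control, a log2 change of -0.29 ± 0.04 (SE, adjusted p = 0.000648). In SW1417 it was higher, with 134 ± 1.24 CPM with 2-MiCit against 124 ± 4.22 CPM in control, a log2 change of 0.10 ± 0.03 (SE, adjusted p = 0.0295). In SKCO1 PFKM was lower, with 68.3 ± 0.483 CPM with 2-MiCit against 74.3 ± 1.31 CPM in control. Its log2 change in SKCO1 was -0.12 ± 0.03 (SE, adjusted p = 0.00483). HK1 and PFKL were called in no line. Genes of glucose uptake and lactate were 2 higher and 3 lower of 6 in HCT116, 0 higher and 3 lower of 6 in SKCO1 and 0 higher and 1 lower of 5 in SW1417, with none called in the other 4 lines and a median of -0.15 in HCT116.

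SLC2A1, the widely expressed glucose transporter GLUT1, was higher in HCT116, with 383 ± 15.7 CPM with 2-MiCit against 261 ± 5.88 CPM in control, a log2 change of 0.55 ± 0.05 (SE, adjusted p = 2.86e-05). In SW1417 it was lower, with 93.8 ± 3.51 CPM with 2-MiCit against 109 ± 3.43 CPM in control, a log2 change of -0.22 ± 0.03 (SE, adjusted p = 0.000959). SLC2A3 (GLUT3) was higher in HCT116, with 20.6 ± 1.72 CPM with 2-MiCit against 10.6 ± 0.61 CPM in control, a log2 change of 0.97 ± 0.08 (SE, adjusted p = 3.37e-05). In SKCO1 SLC2A3 was lower, with 310 ± 4.05 CPM with 2-MiCit against 348 ± 5.53 CPM in control. The log2 change there was -0.17 ± 0.02 (SE, adjusted p = 0.000152). The glucose transporters SLC2A1 and SLC2A3 and the enzymes thus had opposite signs in HCT116. They had the same sign for SLC2A1 in SW1417 and for SLC2A3 in SKCO1, where SLC2A1 was not called (adjusted p = 0.894). LDHB, a lactate dehydrogenase subunit, was lower in HCT116, with 932 ± 82.0 CPM with 2-MiCit against 1217 ± 73.9 CPM in control, a log2 change of -0.39 ± 0.07 (SE, adjusted p = 0.00192). SLC16A1, listed under lactate export, was also lower in HCT116, at a log2 change of -0.22 ± 0.05 (SE, adjusted p = 0.00624). LDHA was not analysed here. PFKFB4, which sets the activator of phosphofructokinase, was called in no line.

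Most regulators of flux were not called in any one line, and those called were more often higher: 3 higher and 0 lower of 8 in HCT116, 4 higher and 0 lower of 9 in HT29, 1 higher and 0 lower of 9 in LoVo, 2 higher and 1 lower of 9 in SKCO1 and 2 higher and 1 lower of 9 in SW1417. None was called in DLD1 or SW948, and their median was 0.21 in HT29, against -0.00085 over all genes. TXNIP, which limits glucose uptake, was higher in HT29, with 336 ± 37.1 CPM with 2-MiCit against 136 ± 19.4 CPM in control, a log2 change of 1.30 ± 0.12 (SE, adjusted p = 0.00117). It was also higher in SW1417, with 114 ± 5.45 CPM with 2-MiCit against 92.4 ± 4.54 CPM in control. The log2 change there was 0.31 ± 0.04 (SE, adjusted p = 0.000734). In SKCO1 TXNIP was higher as well, with 139 ± 1.98 CPM with 2-MiCit against 118 ± 2.46 CPM in control. Its log2 change in SKCO1 was 0.24 ± 0.02 (SE, adjusted p = 1.51e-05). PDK1, a kinase that holds pyruvate dehydrogenase inactive, was lower in SW1417, with 16.5 ± 0.586 CPM with 2-MiCit against 22.8 ± 0.392 CPM in control, a log2 change of -0.47 ± 0.04 (SE, adjusted p = 2.85e-05). HT29 thus had 4 regulators higher while 1 of the 10 enzymes was called. PDK4, of the same kinase family, was higher in HT29, with 12.0 ± 0.571 CPM with 2-MiCit against 8.14 ± 0.788 CPM in control, a log2 change of 0.56 ± 0.08 (SE, adjusted p = 0.00259).

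The next lists stand against all tested genes, of which 19% were higher and 18% lower in HCT116. The shares were 8.1% and 10.8% in SKCO1, 2.94% and 4.05% in SW1417, and 4.65% and 3.02% in HT29. They were 1.59% and 0.702% in LoVo and 0.148% and 0% in DLD1. The pentose phosphate pathway branches off after hexokinase. It was 1 higher and 3 lower of 7 in HCT116 and 0 higher and 3 lower of 7 in SKCO1. None of its genes was called elsewhere, and its median was -0.16 in HCT116. TKT, its transketolase, was lower in SKCO1, with 289.9 ± 14.3 CPM with 2-MiCit against 325 ± 8.12 CPM in control, a log2 change of -0.16 ± 0.03 (SE, adjusted p = 0.00284). Gluconeogenesis was 1 higher and 1 lower of 2 in HCT116, 1 higher and 0 lower of 4 in LoVo and 1 higher and 0 lower of 3 in HT29, with none called elsewhere. PCK1, which makes phosphoenolpyruvate, was higher in LoVo, with 59.5 ± 7.55 CPM with 2-MiCit against 27.4 ± 4.34 CPM in control, a log2 change of 1.11 ± 0.12 (SE, adjusted p = 0.00259). FBP1, which opposes phosphofructokinase, was higher in HT29, with 76.2 ± 6.75 CPM with 2-MiCit against 53.5 ± 3.29 CPM in control, a log2 change of 0.51 ± 0.07 (SE, adjusted p = 0.00134). The genes of pyruvate entry into mitochondria were 0 higher and 3 lower of 7 in HCT116, and none was called in the other 6 lines. The tricarboxylic acid cycle was 4 higher and 6 lower of 17 in HCT116, 0 higher and 6 lower of 17 in SKCO1 and 0 higher and 1 lower of 17 in SW1417, with none called elsewhere and a median of -0.08 in SKCO1, against 0.01 over all genes. CS, the citrate synthase, was lower in SKCO1, with 291 ± 9.8 CPM with 2-MiCit against 329.8 ± 5.55 CPM in control, a log2 change of -0.18 ± 0.03 (SE, adjusted p = 0.000323). HIF targets outside glycolysis were 4 higher and 3 lower of 13 in HCT116, 1 higher and 0 lower of 12 in DLD1, 0 higher and 1 lower of 13 in SKCO1 and 1 higher and 3 lower of 14 in SW1417, with none called elsewhere and a median of -0.08 in HCT116. VEGFA, a growth factor for vessels, was higher in HCT116, with 57.6 ± 1.44 CPM with 2-MiCit against 43.9 ± 2.29 CPM in control, a log2 change of 0.39 ± 0.06 (SE, adjusted p = 0.000489). In SW1417 it was lower, with 29.1 ± 0.64 CPM with 2-MiCit against 33.1 ± 1.59 CPM in control, a log2 change of -0.19 ± 0.04 (SE, adjusted p = 0.0129). VEGFA was also higher in DLD1, with 96.0 ± 7.72 CPM with 2-MiCit against 53.0 ± 3.67 CPM in control. Its log2 change in DLD1 was 0.86 ± 0.09 (SE, adjusted p = 0.0115). The HIF targets were called in both directions in HCT116 and in SW1417, as were genes in general.

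Libraries of a group varied together in most enzymes. With log2 CPM centred within each line and treatment, the median Pearson r over the 45 pairs of enzymes was 0.50 over 32 libraries of the first table and 0.44 over 24 of the other. These are descriptions, and the enzymes share library, depth and length effects. In the first table HK2, with the longest transcript of the 10, ran against TPI1 (r = -0.91), whose transcript is among the shortest. Over the 30 libraries left without the length-biased ones, the median r was 0.52 and that of HK2 and TPI1 was -0.80. The 5 genes most like the mean profile, by the mean r over both tables among 10069 genes at a mean of at least 5 CPM, were CSRP1 (0.84), ACTB (0.80), CTSD (0.80), CAPNS1 (0.79) and PRKCSH (0.78).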

How the data were processed

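RNA from 7 colorectal cancer lines was sequenced from poly(A) libraries (Illumina Stranded mRNA Prep, per the labels' protocols). The deposited files are 2 tables of whole-number counts per Ensembl gene, not normalized. The submitters' processing notes name bcl2fastq 2.20.0, Trimmomatic 0.39, Salmon 1.5.0, DESeq2 and GRCh38.p13, and Salmon divides reads that fit several gene copies. Library size and the spread between libraries both limit the precision of each value. In every group, libraries differed over all genes by more than counting noise.

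From the counts, each line was fitted alone with edgeR 4.0.16 (limma 3.58.1, R 4.3.3): filterByExpr, TMM factors and the robust quasi-likelihood F test, two-sided, with Benjamini-Hochberg adjustment over all tested genes and a threshold of 0.05. Interactions and control levels used 1 fit per table. Transcript lengths and gene coordinates are from GENCODE v29 on GRCh38, and lengths are the median of a gene's protein-coding transcripts. DESeq2 1.42.0, RLE factors, no filter, a stricter filter (5 CPM in 4 libraries), a replicate block, removal of a length trend, 1 fit over all lines and each library left out were alternatives. The last was added for interactions and control levels after seeing the data, as was leaving out both length-biased libraries of the first table. The models were tested on simulated data. There, changes of 1.25-fold were recovered for 64.2% of changed genes in SW1417, 56.7% in SKCO1, 28.4% in HT29 and 16.4% in HCT116. The share was 11.9% in LoVo, 4.48% in DLD1 and 2.99% in SW948. A lack of calls in these last 3 lines therefore does not show that changes of this size are absent.

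The enzymes and gene lists were chosen with earlier results of these data known. Named from each other list are the called genes with the smallest adjusted p, at most 2 per direction and line, with SLC2A1, HK1, PFKL, PFKM and PFKFB4, and not all are printed. LDHA, also in that rule, was not analysed here.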

Additional observations from a re-analysis of the deposited data

Results flagged for a closer look

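In 7 of the 140 groups of 4 libraries, 1 library lay far outside the other 3 by Dixon's test, and chance gives about 1 in 20. TPI1 in SW948 had 1478 CPM in 2-MiCit replicate 2, against 872 to 961 CPM in the other 2-MiCit libraries. TPI1 in SW1417 had 599 CPM in 2-MiCit replicate 4, against 581 to 582 CPM. ENO1 in LoVo had 1456 CPM in 2-MiCit replicate 4, against 1514 to 1525 CPM. PKM in SW1417 had 2167 CPM in 2-MiCit replicate 3, against 2219 to 2227 CPM. In DLD1 control replicate 1, GPI had 576 CPM and ALDOA 1383 CPM, against 667 to 681 CPM and 1175 to 1198 CPM in the other controls. PGK1 in SW948 had 334 CPM in control replicate 2, against 317 to 320 CPM.

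The effect of 2-MiCit differed between lines of the first table, by edgeR's interaction test, for HK2 (adjusted p = 0.0146), TPI1 (adjusted p = 0.0282), GAPDH (adjusted p = 0.0431), PGAM1 (adjusted p = 0.0159) and ENO1 (adjusted p = 0.00524). In the other table it differed for PFKP (adjusted p = 0.0436) and PGAM1 (adjusted p = 0.00158).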

How the results depend on the processing

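The counts of lower enzymes in HCT116 (9) and SKCO1 (8) stayed within 1.5 times under every setting tried. Of the values of single enzymes with 2-MiCit under settings that kept all libraries, 452 kept direction and side of the threshold, 8 lost the call, 22 gained one and 8 turned direction. The cause of the moves listed here was not tested. DESeq2 called 474 genes and 2 lower enzymes in DLD1, 935 and 3 in LoVo, and 3 lower enzymes in HT29. In 1 fit over all lines of a table there were 1352 genes and 4 lower enzymes in DLD1, 2491 and 3 in HT29, 438 and 3 in SW1417, 202 and 1 in LoVo, 2 genes in SW948 and 1636 in SKCO1. The stricter filter gave 40 genes in DLD1. With the length trend removed there were 52 genes in DLD1, 669 with 3 lower enzymes in LoVo and 2 lower enzymes in HT29. That setting also moved the split of higher and lower genes, to 2258 and 3505 in HCT116 against 2635 and 2489, and to 864 and 2520 in SKCO1 against 1187 and 1589. SW1417 had 307 and 639 against 414 and 570. HT29 had 509 and 678 against 646 and 419. LoVo had 269 and 400 against 218 and 96, and DLD1 49 and 3 against 20 and 0. DESeq2 gave DLD1 324 and 150, LoVo 458 and 477, and HT29 808 and 730.

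Replicate numbers did not pair the libraries: deviations of same-numbered libraries correlated between -0.52 and 0.48, with 10 of 28 pairs over 0.1. With the replicate block, 0 genes were called in DLD1, 2184 genes and 3 lower enzymes in HT29, 1637 genes and 1 enzyme, HK2, for the interaction in the first table and 1566 genes in the other. TPI1 (adjusted p = 0.103), GAPDH (adjusted p = 0.142), PGAM1 (adjusted p = 0.0631) and ENO1 (adjusted p = 0.0575) were then not called in the first table. In the other table PFKP (adjusted p = 0.0722) was not and PGK1 (adjusted p = 0.0288) was, while PGAM1 was still called. Of the pairs of lines, the block lost ALDOA and GAPDH between HCT116 and SW948 (adjusted p = 0.0568 and 0.0532) and HK2 and TPI1 between DLD1 and SW948 (adjusted p = 0.0818 and 0.1). RLE factors left 1 enzyme with an interaction in the other table.

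Small log2 changes turned direction. Without the length trend SW948 had 0.018 for GPI, -0.034 for ALDOA, 0.054 for PGK1 and -0.059 for ENO1, and PKM had -0.0019 in HT29 and -0.024 in SKCO1. PKM in SKCO1 had -0.0043 in 1 fit over all lines, PGAM1 in HT29 0.0075 with the stricter filter, and TPI1 -0.0015 between DLD1 and SW948 controls with RLE factors. The ENO1 share in SW948 differed by 0.0139 percentage points when not divided by length. The HCT116 summed ratio was 0.866 as a raw share.

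With 1 library left out, called genes ranged from 1 to 183 in DLD1, from 36 to 1068 in LoVo, from 0 to 3 in SW948, from 452 to 1114 in HT29 and from 490 to 1130 in SW1417. The 183 came without DLD1 control replicate 1. Lower enzymes ranged from 6 to 9 in HCT116, 0 to 2 in LoVo, 0 to 3 in HT29, 7 to 8 in SKCO1 and 6 to 8 in SW1417. The 6 in HCT116 came without control replicate 2, where GPI (adjusted p = 0.0581), PFKP (adjusted p = 0.104) and PGK1 (adjusted p = 0.059) were not called. Interactions were called for 3 to 6 enzymes in the first table and 1 to 2 in the other. Control levels of DLD1 and LoVo differed in 5 to 9 enzymes. Log2 changes that crossed 0 were PFKP in DLD1 (-0.13 to 0.042), PKM in SKCO1 (-0.012 to 0.020), and in SW948 GPI (-0.047 to 0.016), ALDOA (-0.052 to 0.13), GAPDH (-0.077 to 0.028), PGK1 (-0.035 to 0.0018), PGAM1 (-0.047 to 0.0056) and ENO1 (-0.030 to 0.035). In HT29 they were GPI (-0.11 to 0.069), ALDOA (-0.11 to 0.024), TPI1 (-0.065 to 0.017), PGAM1 (-0.021 to 0.011) and PKM (-0.027 to 0.073). Among controls they were GPI between HCT116 and LoVo (-0.048 to 0.0095), TPI1 between DLD1 and SW948 (-0.14 to 0.087) and GPI between HT29 and SKCO1 (-0.12 to 0.057).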
